A study of Mus musculus with 4 samples.

Results

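The GABAergic lineage of the forebrain was followed with 9 genes through 4 libraries of cultured mouse neural stem cells: the homeobox genes Dlx1, Dlx2, Dlx5 and Dlx6, the zinc finger genes Sp8 and Sp9, the glutamate decarboxylase genes Gad1 and Gad2, and Slc32a1. They were chosen by name, matched through their Entrez gene IDs, and all 9 were found among the 17621 genes of the files. Primary stem cells had been grown from newborn mouse cortex with EGF and bFGF, growth factors that keep such cells dividing. The libraries compare cells with and without depletion of Seh1, a protein of the nuclear pore, in that growth medium (day 0) and in differentiation medium, from which both factors had been withdrawn (day 3). Control cells (Ctrl) had the genotype Seh1 f/f, and depleted cells (iKO) had the genotype cmv-cre-ert,seh1 f/f. All 4 groups thus carried the floxed alleles, while cre-ert, by its name a Cre fused to an estrogen receptor domain behind a CMV promoter, was carried by the iKO cells alone. The sources used here name neither an inducer nor the number of animals behind each culture.

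DLX proteins are homeodomain transcription factors of the ventral forebrain, where they act downstream of Gsx2 and promote the formation and migration of inhibitory neurons. SP8 and SP9 are transcription factors of the same progenitors and of the young interneurons that migrate to the olfactory bulb. The enzymes GAD67 (Gad1) and GAD65 (Gad2) make GABA, and the vesicular transporter VGAT (Slc32a1) loads it into synaptic vesicles. Neurons of this lineage are born outside the cortex during development, but cultured cortical stem cells can also give rise to cells with these markers.

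Each group held 1 library, with totals of 19611788 to 21040590 expected counts. Levels are in CPM, the count scaled to the library total with the TMM correction for library makeup. The threshold for calling a gene higher or lower was a 2-fold difference in log2(CPM + 1), applied to the 12976 genes whose mean reached 1 CPM. Intervals are 95% intervals of counting error, and no comparison has a replicate check, so no p-value is given. Of the 9 genes 6 passed this minimum, while Dlx5 (mean of 0.576 CPM), Slc32a1 (0.601 CPM) and Dlx6 (0.143 CPM) did not. Seh1l, the targeted gene, was 2.1-fold lower in iKO at day 0 (1.86 to 2.37; 40.3 CPM against 19.2 CPM) and 3.01-fold lower at day 3 (2.58 to 3.54; 33.2 CPM against 11 CPM). The stem cell markers Nes (165 to 849 CPM) and Sox2 (350.1 to 618 CPM) and the telencephalic gene Emx2 (42.0 to 50.6 CPM) were present in every library. Emx1, a marker of the cortical lineage, had 20 and 13 counts in the day 0 libraries and 0 in both day 3 libraries.

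The lineage genes differed in their order over the libraries but shared, with all transcript models counted, the direction of the iKO to Ctrl difference on each day. In control cells 6 of the 9 genes were higher by 2-fold or more at day 3 than at day 0 and none was lower, where 14.6% of all genes compared were higher and 15.1% lower. In iKO cells Dlx1, Dlx2 and Sp9 were lower by 2-fold or more at day 3 and none was higher, against 11.4% and 11.2% of all genes. The iKO library read above Ctrl for all 9 genes at day 0, and below it for all 9 at day 3, in the case of Gad1 and Sp8 not when NM transcript models alone were counted. The summed level of the 9 genes was 43.2 CPM (Ctrl) and 89.2 CPM (iKO) at day 0, and 161 CPM and 67.9 CPM at day 3. In bulk RNA fewer cells of a type and less RNA per cell cannot be told apart. The bar plots of the 9 genes give the level and the count in each library.

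**Figure D1:**
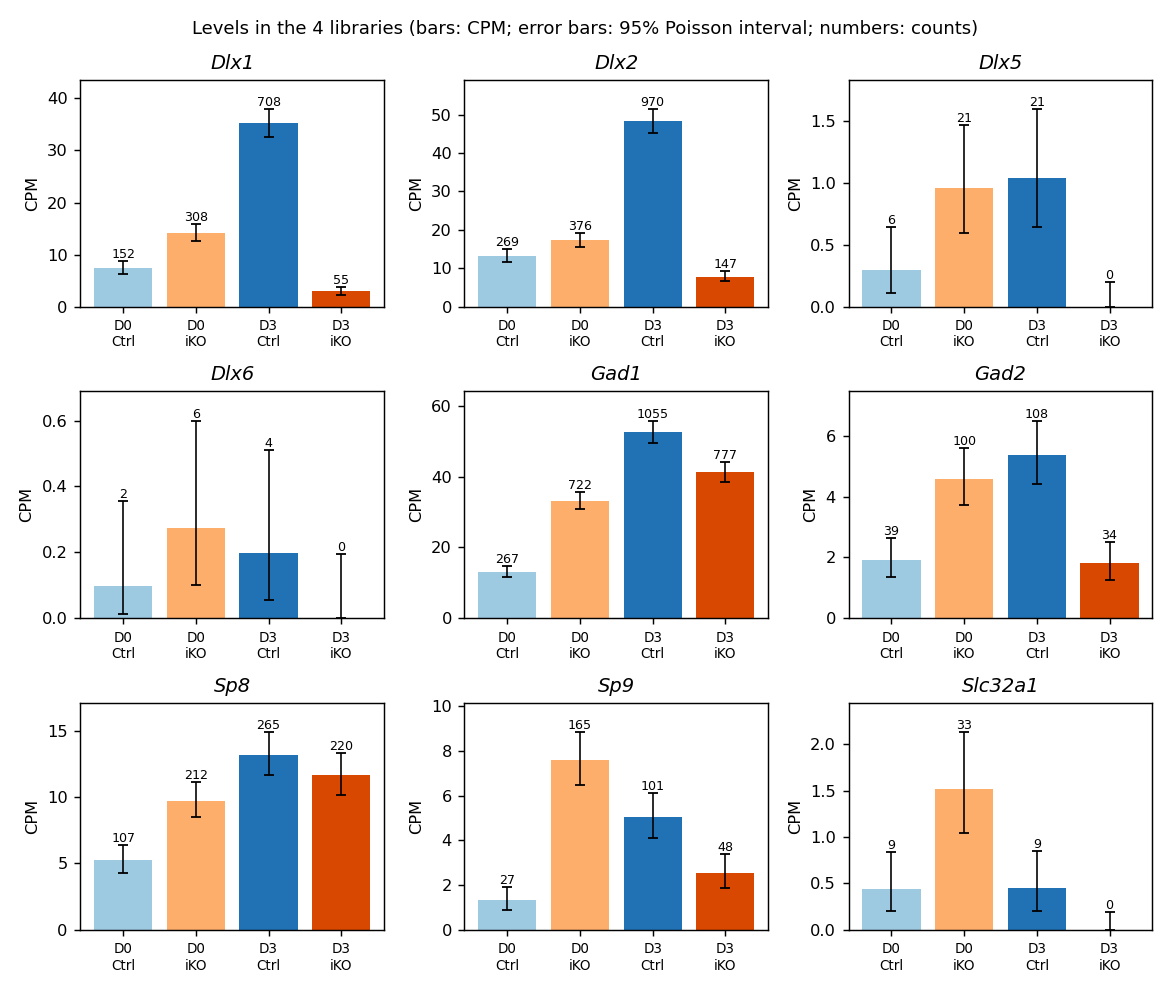
Level of each gene in CPM (vertical axis, from 0, scaled per gene) in the 4 libraries, with 95% Poisson intervals of counting error as error bars and the count above each bar. Dlx1 and Dlx2 peak in Ctrl at day 3 (35.2 and 48.3 CPM) and are lowest in iKO at day 3 (2.92 and 7.79 CPM), while Gad1 remains at 41.2 CPM there.

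Dlx1 and Dlx2 form a convergently transcribed pair on chromosome 2, 9.43 kb apart, in the build GRCm38. Dlx1 (gene ID 13390) spans chr2:71528113-71533981 on the plus strand and Dlx2 (gene ID 13392) spans chr2:71543408-71546754 on the minus strand. For Dlx1 the files held 152 counts (Ctrl) and 308 counts (iKO) at day 0, and 708 and 55 counts at day 3. Its level was 7.48 CPM (Ctrl) and 14.1 CPM (iKO) at day 0, and 35.2 CPM and 2.92 CPM at day 3. The control library at day 3 was the highest and the iKO library at day 3 the lowest. Dlx1 was 1.89-fold higher in iKO at day 0 (1.55 to 2.31) and 12.1-fold lower in iKO at day 3 (9.17 to 16.2). From day 0 to day 3 it was 4.71-fold higher in Ctrl (3.95 to 5.65) and 4.85-fold lower in iKO (3.63 to 6.58).

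Dlx2 had 269 counts (Ctrl) and 376 counts (iKO) at day 0, and 970 and 147 counts at day 3. Its level was 13.2 CPM (Ctrl) and 17.3 CPM (iKO) at day 0, and 48.3 CPM and 7.79 CPM at day 3. The order of the libraries was that of Dlx1, with smaller steps. Dlx2 was 1.30-fold higher in iKO at day 0 (1.11 to 1.53) and 6.19-fold lower at day 3 (5.20 to 7.42). It was 3.65-fold higher at day 3 than at day 0 in Ctrl (3.18 to 4.19) and 2.21-fold lower in iKO (1.83 to 2.70). The ratio of Dlx2 counts to Dlx1 counts was 1.37 (1.24 to 1.51) in Ctrl and 2.67 (1.95 to 3.71) in iKO at day 3, so the pair did not keep a constant proportion.

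An antisense gene, Dlx1as, overlaps 3344 of the 5869 bases spanned by Dlx1 and was not analysed here. No source used here says whether the counting used strand, so reads of Dlx1as and Dlx1 may not be told apart. Dlx2 does not overlap Dlx1as and had 1 transcript model, which held all of its counts. Of the 6 models of Dlx1, the curated model NM_010053.2 held 83.9% to 93.2% of the estimated counts in each library.

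Dlx5 and Dlx6 are the second convergent pair, on chromosome 6 and 9.83 kb apart, and were close to the limit of detection. Dlx5 (gene ID 13395, chr6:6877801-6882068) had 6 counts (Ctrl) and 21 counts (iKO) at day 0, and 21 and 0 counts at day 3. It was 3.27-fold higher in iKO at day 0 (1.27 to 9.89) and at least 6.57-fold lower in iKO at day 3, set against a floor of 3 counts per library. Dlx6 (gene ID 13396, chr6:6863334-6867970) had 2 and 6 counts at day 0 and 4 and 0 at day 3, which leaves its day 0 ratio of 2.80 between 0.5 and 28.4. The antisense gene Dlx6os1 covers all 4637 bases of Dlx6 and was not analysed here. The order of the libraries for Dlx5 was like that of Dlx1 except that the highest level, 1.04 CPM in Ctrl at day 3, was close to the 0.964 CPM of iKO at day 0.

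The zinc finger genes differed from each other. Sp9 (gene ID 381373, chr2:73271926-73275771), with 1 transcript model, had 27 counts (Ctrl) and 165 counts (iKO) at day 0, and 101 and 48 counts at day 3. Its level was 1.33 CPM and 7.57 CPM at day 0 and 5.02 CPM and 2.54 CPM at day 3, so its highest library was iKO at day 0. Sp9 was 5.70-fold higher in iKO at day 0 (3.78 to 8.91), the largest of the 9 differences on that day, and 1.97-fold lower at day 3 (1.39 to 2.85). It was 3.78-fold higher at day 3 than at day 0 in Ctrl (2.45 to 6.02) and 2.98-fold lower in iKO (2.15 to 4.19). Sp8 (gene ID 320145, chr12:118846288-118852578) was at 5.26 CPM (Ctrl) and 9.73 CPM (iKO) at day 0, and at 13.2 CPM and 11.7 CPM at day 3, from 107, 212, 265 and 220 counts. It was 1.85-fold higher in iKO at day 0 (1.46 to 2.35), and its day 3 difference, 1.13-fold lower, had an interval from 0.942 to 1.36 that includes no difference. Sp8 was thus not lower from day 0 to day 3 in iKO, at 1.20-fold higher (0.988 to 1.45).

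The GABA synthesis genes also parted at day 3. Gad1 (gene ID 14415, chr2:70561303-70602014) had 267 counts (Ctrl) and 722 counts (iKO) at day 0, and 1055 and 777 counts at day 3. Its level was 13.1 CPM and 33.1 CPM at day 0 and 52.5 CPM and 41.2 CPM at day 3. Both day 3 libraries were above both day 0 libraries. Gad1 was 2.52-fold higher in iKO at day 0 (2.19 to 2.91) and 1.27-fold lower at day 3 (1.16 to 1.40). From day 0 to day 3 it was 4.00-fold higher in Ctrl (3.49 to 4.59) and 1.24-fold higher in iKO (1.12 to 1.38).

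Gad2 (gene ID 14417, chr2:22621015-22693877) had 39 and 100 counts at day 0 and 108 and 34 at day 3, in Ctrl and iKO in turn. Its level was 1.92 CPM (Ctrl) and 4.59 CPM (iKO) at day 0, and 5.37 CPM and 1.80 CPM at day 3. The iKO library at day 3 lay close to the Ctrl library at day 0. Gad2 was 2.39-fold higher in iKO at day 0 (1.64 to 3.56) and 2.98-fold lower at day 3 (2.01 to 4.52). It was 2.80-fold higher at day 3 than at day 0 in Ctrl (1.93 to 4.15) and 2.55-fold lower in iKO (1.71 to 3.88). The ratio of Gad1 to Gad2 counts was 9.77 (8.01 to 12) in Ctrl and 22.9 (16.2 to 33.2) in iKO at day 3, against 6.85 (4.88 to 9.84) and 7.22 (5.85 to 8.99) at day 0.

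Slc32a1 (gene ID 22348, chr2:158607260-158615747), the vesicular transporter gene, was low in every library, with 9 counts (Ctrl) and 33 counts (iKO) at day 0, and 9 and 0 at day 3. It was 3.42-fold higher in iKO at day 0 (1.6 to 8.13) and at least 2.82-fold lower in iKO at day 3. Between the 2 days it did not differ in Ctrl beyond counting error, at a ratio of 1.01 (0.356 to 2.88). It was at least 9.52-fold lower at day 3 than at day 0 in iKO. The gene of vesicular loading thus differed from the synthesis gene Gad1, which was 4.00-fold higher in Ctrl over the same interval.

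Per length, in deposited FPKM, Gad1, Dlx2 and Dlx1 were the 3 highest of the 9 genes in both day 0 libraries and in Ctrl at day 3. In Ctrl at day 0 they stood at 4.48, 5.16 and 2.54 FPKM, and in iKO at day 0 at 12.3, 7.36 and 5.23 FPKM, and Gad1 and Dlx2 did not differ beyond counting error in the first of these libraries. Sp8 and Sp9 followed, at 1.09 and 0.450 FPKM in Ctrl at day 0 and at 2.19 and 2.84 FPKM in iKO, where they did not differ beyond counting error. In Ctrl at day 3 the first 3 genes stood at 20.8, 19.9 and 12.4 FPKM, of which Gad1 and Dlx2 did not differ beyond counting error. In iKO at day 3 the order was Gad1 at 15.0 FPKM, Dlx2 at 3.03 and Sp8 at 2.39, with Dlx1 next at 0.990 FPKM. Dlx2 and Sp8 did not differ there beyond counting error, nor did Dlx1 and Sp9 (0.870 FPKM). Gad2, at 0.310 to 0.960 FPKM, stood sixth in every library, but did not differ beyond counting error from Dlx5 in both day 0 libraries and in Ctrl at day 3, nor from Sp9 in Ctrl at day 0. Dlx5, Dlx6 and Slc32a1 took the last 3 places and did not exceed 0.780 FPKM.

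Within day 0, Gad1 and Sp9 were higher in iKO by 2-fold or more on the log2(CPM + 1) scale. None of the 9 genes was lower, while 2.67% of the 12976 genes compared were higher and 0.331% lower. Gad2, 2.39-fold higher in CPM, fell short of the threshold on that scale, at 0.94. All 9 log2 ratios were above 0, with a median of 0.80, against a median of -0.06 for all genes compared, of which 43.5% were above 0. Within day 3, Dlx1, Dlx2 and Gad2 were lower in iKO by 2-fold or more and none was higher, where 4.76% of all genes were lower and 6.27% higher. Dlx5 also lay past that difference, at -1.03, but under the minimum level. The median of the 9 log2 ratios at day 3 was -0.77 against -0.01 for all genes compared, and all 9 were below 0 except with NM transcript models alone, where Gad1 lay at 0.00 and Sp8 at 0.13. NM models held 48.9% (Ctrl) and 63.5% (iKO) of Gad1 counts at day 3, and 14.3% and 18.5% of Sp8 counts. Without a pseudocount and with genes at 0 placed at their bound, the medians of the 9 log2 ratios were 1.33 at day 0 and -1.49 at day 3.

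Between the days, the median of the 9 log2 ratios was 1.18 in Ctrl, against -0.02 for all genes compared, and -1.0 in iKO, against -0.01. Slc32a1, under the minimum, had a log2 ratio of -1.33 in iKO. Gad2, 2.55-fold lower in CPM in iKO, lay just short of the threshold at -0.996. Gad1 (0.31) and Sp8 (0.24) lay above 0 in iKO. The comparisons within a day and those between days share libraries, so the 4 sets of ratios are not independent of each other.

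**Figure D2:**
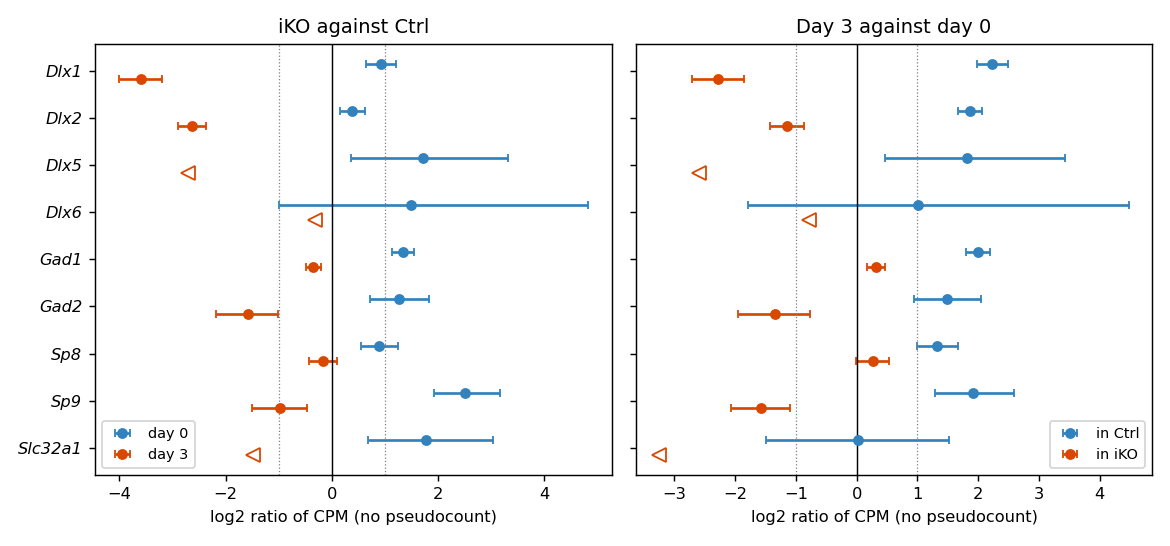
Log2 ratio of CPM without a pseudocount for each gene, with 95% counting intervals as bars and open triangles as bounds for genes with 0 counts in iKO at day 3. Left, iKO against Ctrl at day 0 (blue) and day 3 (orange), and right, day 3 against day 0 in Ctrl (blue) and iKO (orange), with dotted lines at 2-fold. The blue points lie at or right of 0 in both panels, and Dlx1 at day 3 has the most negative measured ratio in the left panel (12.1-fold lower).

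The log2 ratio of iKO to Ctrl was lower at day 3 than at day 0 for all 9 genes. The difference was -4.05 for Dlx1, -2.84 for Dlx2, -2.65 for Sp9, -2.12 for Gad2 and -1.61 for Gad1. Those 5 genes lay at least 1 below, as did 5.5% of all genes compared. The difference for Sp8 was -0.94. Among the genes under the minimum it was -1.63 for Dlx5, -1.34 for Slc32a1 and -0.48 for Dlx6. Among all genes compared 482 lay at least 1 above and 714 at least 1 below, and with scaling to library totals alone 300 and 959, respectively. With 1 library per group this difference has no error between cultures.

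The authors' deposited table for day 3 lists 5 of the 9 genes among its 1774, all with a negative log2 ratio of iKO to Ctrl. In that deposited table by the authors the log2 ratio was -3.65 for Dlx1, -2.71 for Dlx2, -6.27 for Dlx5, -1.63 for Gad2 and -1.06 for Sp9. The value of Dlx5 there rests on a library with 0 counts. Gad1, Sp8, Dlx6 and Slc32a1 are not listed in it. The authors' deposited table for day 0, of which 103 rows were used here, lists none of the 9 in those rows. Its copy used here ends in an incomplete entry and may be only a part. Whether the authors listed any of the 9 genes at day 0 is therefore not known. Each of these tables compares 2 libraries, and no source used here gives its selection rule.

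Gad1, Dlx1, Dlx2 and Sp9 lie within 2714 kb of chromosome 2, with 16 other genes of the files between them. None of those 16 was at least 2-fold lower in iKO at day 3, and their median log2 ratio was 0.14. Metap1d, the gene next to Dlx1 at 2.92 kb, was at 27.3 CPM (Ctrl) and 21.6 CPM (iKO) at day 3 (-0.32), and Itga6, the integrin gene on the far side of Dlx2, was at 146 CPM and 214 CPM (0.55). Cybrd1, Rapgef4 and Map3k20, named after their values were seen, exceeded 2-fold in the other direction at day 3 (1.67, 2.73 and 1.67). Cir1, 8.10 kb past Sp9, differed little in that comparison (-0.19). On chromosome 6, Sem1 and Sdhaf3, the nearest genes of the files on the outer sides of the Dlx6 and Dlx5 pair, had log2 ratios of 0.01 and -0.39 at day 3. None of these genes beside the Dlx pairs was 2-fold lower in iKO at day 3.

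**Figure D3:**
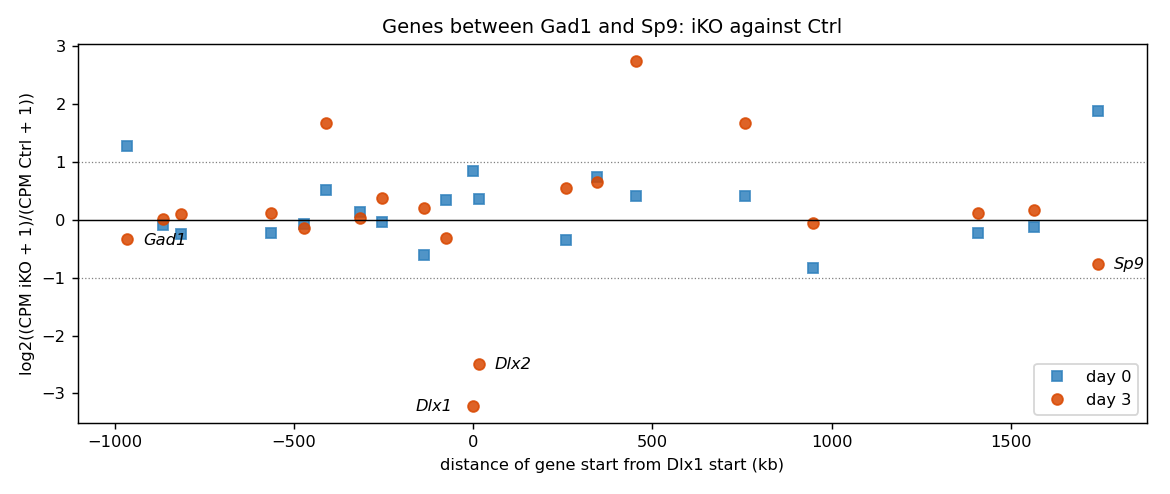
Log2 ratio of iKO to Ctrl on the log2(CPM + 1) scale (vertical axis) at day 0 (squares) and day 3 (circles) for the 20 genes from Gad1 to Sp9, by distance of the gene start from that of Dlx1 in kb. At day 3 Dlx1 (-3.21) and Dlx2 (-2.49) lie below all the other genes of the stretch.

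Upstream sequences are shown for Dlx2 and Sp9, since both were higher over time in Ctrl and lower in iKO and their upstream stretches lie outside annotated exons. They come from the RefSeq promoter table of GRCm38.p6, which held windows for 7 of the 9 genes, and run 5′ to 3′ on the strand of the gene up to the base before the start used in that table, less 1 base for Sp9 that lies in a GENCODE exon. The Dlx2 stretch is chr2:71546755-71547004, minus strand, and the Sp9 stretch is chr2:73271676-73271924, plus strand. Capitals mark a GC box, the motif GGGCGG on either strand, which SP family proteins can bind.
Dlx2: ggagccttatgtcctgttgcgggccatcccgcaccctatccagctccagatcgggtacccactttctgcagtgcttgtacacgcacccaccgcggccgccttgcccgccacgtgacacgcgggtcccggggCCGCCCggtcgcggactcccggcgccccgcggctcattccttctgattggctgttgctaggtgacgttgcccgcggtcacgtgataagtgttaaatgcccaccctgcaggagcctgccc
Sp9: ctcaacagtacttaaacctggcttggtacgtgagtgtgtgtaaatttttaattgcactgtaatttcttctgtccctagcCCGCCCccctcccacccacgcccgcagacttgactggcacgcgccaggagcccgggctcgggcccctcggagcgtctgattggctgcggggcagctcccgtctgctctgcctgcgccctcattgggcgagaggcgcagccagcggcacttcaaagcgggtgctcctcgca
A search for 3 motifs was made on both strands in the windows of 250 bases before to 50 bases after each start, namely TAATTA (the core bound by homeodomains such as those of DLX proteins), the E-box CAGCTG and the GC box GGGCGG. Of the 9 windows of these genes (3 belong to Sp8), 5 held a GC box, 1 held TAATTA (an Sp8 window) and 0 held CAGCTG. Among all 32851 windows the shares were 35.7%, 5.29% and 16.3%. The windows of Dlx1 and Dlx2 had a GC content of 69.3% and 66.3%, against a median of 52.7% over all windows.

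Other genes of the ventral lineage were also measured. Gsx2, a homeobox gene of ventral progenitors, had 127 counts (Ctrl) and 93 counts (iKO) at day 0, and 65 and 3 at day 3. It was 20.3-fold lower in iKO at day 3 (6.66 to 101), while its relative Gsx1 was 1.93-fold lower (1.64 to 2.27). Lhx6, a gene of interneurons from the medial ganglionic eminence, had 13 and 22 counts at day 0 and 0 in both day 3 libraries.

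Of 25 listed transcription factors of the ventral forebrain and interneurons, 24 were in the files and 21 were compared. None was at least 2-fold different in iKO at day 0, and 5 were lower and 3 higher at day 3 (median over the 24 of -0.20). Among all genes compared, 4.76% were lower and 6.27% higher at day 3. Those lower were Bcl11b (-2.54), Gsx2 (-1.87), Sox6 (-1.41), Ebf1 (-1.19) and Etv1 (-1.12), and those higher were Maf (1.38), Nr2f2 (1.07) and Rarb (1.05). The largest day 3 difference on the log2(CPM + 1) scale was that of Bcl11b, a zinc finger gene of striatal projection neurons, at 16.2 CPM (Ctrl) and 1.96 CPM (iKO). Nr2f2 encodes a nuclear receptor of caudal ganglionic eminence progenitors. From day 0 to day 3 in Ctrl 11 of the 21 were higher and 1 (Nr2f2, at -1.87) was lower. Of all genes compared 14.6% were higher and 15.1% lower in Ctrl. In iKO Gsx1, Maf and Rarb were higher over the 3 days, and Gsx2 and Bcl11b were lower, against 11.2% and 11.4% of all genes. Beyond the 2 genes of largest difference, the names here were added after their values were seen.

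Of 20 listed genes of interneuron and olfactory bulb neuron subtypes, 19 were in the files and 8 were compared. At day 3 in iKO 3 were lower and 0 higher, namely the serotonin receptor gene Htr3a at 9.55 CPM (Ctrl) and 0.424 CPM (iKO), the neuregulin receptor gene Erbb4 at 227 CPM and 64.6 CPM, and the chemokine receptor gene Ackr3 at 50.4 CPM and 17.5 CPM. Among all genes compared, 4.76% were lower and 6.27% higher at day 3. Erbb4 and Ackr3 are also expressed outside interneurons. Reln (0.67), Cxcr4 (0.59) and Synpr (0.39) lay above 0 at day 3, and Pde1c (-0.51) and Robo2 (-0.17) below. Markers of mature interneurons were near 0, with Sst at 0.836 CPM or less, Pvalb at 2.39 CPM or less and Calb2 at 2.29 CPM or less in any library. Pvalb, under the minimum, was higher in iKO at day 3, with 8 counts in Ctrl and 45 in iKO (1.28). Synpr, a synaptic vesicle protein gene, was 2.51 CPM (Ctrl) and 10.2 CPM (iKO) at day 0, the largest difference of the list on that day (1.68).

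Of 17 genes that mark neurons in general, 8 were at least 2-fold lower in iKO at day 3 and 0 higher (median -0.94), where 4.76% of all genes were lower. The other 9 did not pass, with Syt1 (0.70) and Stmn2 (0.53) above 0. The 8 lower genes included Dcx, a microtubule protein of migrating young neurons, at 147 CPM (Ctrl) and 15.4 CPM (iKO), and Tubb3, a neuronal tubulin, at 71.0 CPM and 15.5 CPM. The summed level of the 17 genes was 3122 CPM (Ctrl) and 1680 CPM (iKO) at day 3, and 1865 CPM and 1844 CPM at day 0. Most of each day 3 sum was Map2 (1459 CPM in Ctrl and 871 CPM in iKO) and Sox4 (856 CPM and 446 CPM), neither of them among the 8. Map2 was also at 879 CPM in Ctrl at day 0, so the sum is not a measure of neuronal RNA alone. At day 0 Nrxn3 (1.71) and Stmn2 (1.5) were higher and 0 of the 17 were lower (median 0.34), where 2.67% of all genes were higher. The part of neuron number in the values of the 9 genes was not tested. Excitatory lineage genes were scarce apart from Emx2, at 42.0 to 50.6 CPM. Of 14 listed genes 4 were compared, Emx2 among them, and 0 of them were 2-fold different at day 3. Neurog2, a proneural gene of this lineage under the minimum, had 48 counts in Ctrl and 4 in iKO at day 3 (-1.48). At day 0 Neurod1 (1.1) and, under the minimum, Slc17a7 (1.02) were higher in iKO. The transporter genes Slc17a6 and Slc17a7 did not exceed 0.367 CPM and 1.84 CPM.

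Glial lists also differed between the libraries. Of 11 oligodendrocyte lineage genes 10 were compared and 7 were lower in iKO at day 3 (median over the 11 of -1.54), with a summed level of 4906 CPM (Ctrl) and 3500.0 CPM (iKO). At day 0 4 of the 10 were lower in iKO, namely Sox10 (-1.53), Pdgfra (-1.35), Gpr17 (-1.29) and Mbp (-1.01). Of all genes compared 0.331% were lower and 2.67% higher in iKO at day 0, and 4.76% lower and 6.27% higher at day 3. Of 9 astrocyte genes 0 were 2-fold different at day 3, with a summed level of 17026 CPM (Ctrl) and 23139 CPM (iKO) (median 0.36). Most of the difference between these sums was Apoe, at 6765 CPM (Ctrl) and 12096 CPM (iKO). At day 3 7 of the 9 lay above 0, and Aldh1l1 (-0.49) and Aldoc (-0.09) below. Apoe (2.24), Gfap (1.88) and Aqp4 (1.20) were higher at day 0 (median 0.93). Of 8 cell cycle genes 0 were 2-fold different between iKO and Ctrl on either day, but all 8 read lower in iKO at day 0, with a median of -0.76 and a summed level of 4172 CPM (Ctrl) and 2435 CPM (iKO). All 8 were lower at day 3 than at day 0 in both genotypes, where 15.1% (Ctrl) and 11.4% (iKO) of all genes were lower. Microglial and endothelial lists summed to at most 8.81 CPM and 2.60 CPM in any library, and the fibroblast and mural list to 19.7 CPM in iKO at day 0 and 7.43 CPM in Ctrl. The part of these cell types in the values of the lineage genes was not tested.

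**Figure D4:**
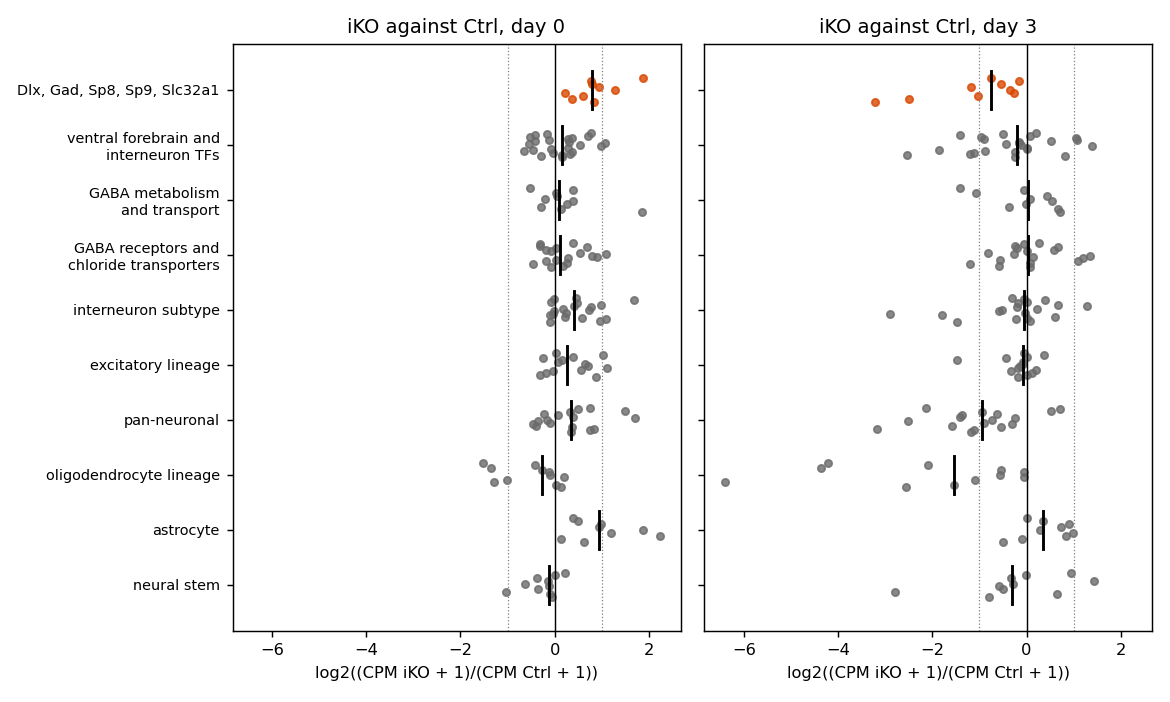
Log2 ratio of iKO to Ctrl on the log2(CPM + 1) scale (horizontal axis) at day 0 (left) and day 3 (right) for every gene of 10 lists present in the files (points), with the median of each list as a vertical bar and dotted lines at 2-fold. The 9 lineage genes (orange, top row) lie right of 0 at day 0 and left of 0 at day 3 (Gad1 and Sp8 not with NM transcript models alone), and the pan-neuronal list has a day 3 median of -0.94.

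The genes whose pattern over the 4 libraries was nearest to that of Dlx1 were found by the Euclidean distance between log2(CPM + 1) values after removal of each gene's mean, a description over 4 points. In order of distance they were Celf3 (0.31), Celsr3 (0.42), Scrt1 (0.54), Nacad (0.62), Dlx2 (0.68), Nkain2 (0.68), Rab3c (0.75) and Bcas1 (0.76), among 12975 genes ranked. Celf3 encodes a neuronal RNA-binding protein, Celsr3 a cadherin that guides axons, and Scrt1 a zinc finger repressor of young neurons, while Bcas1 marks newly forming oligodendrocytes. Celf3 was at 54.8 CPM (Ctrl) and 5.25 CPM (iKO) at day 3. Dlx2 ranked 5, and the other lineage genes stood further off, with Gad2 at rank 156, Sp9 at 616, Sp8 at 2910 and Gad1 at 3619.

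**Figure D5:**
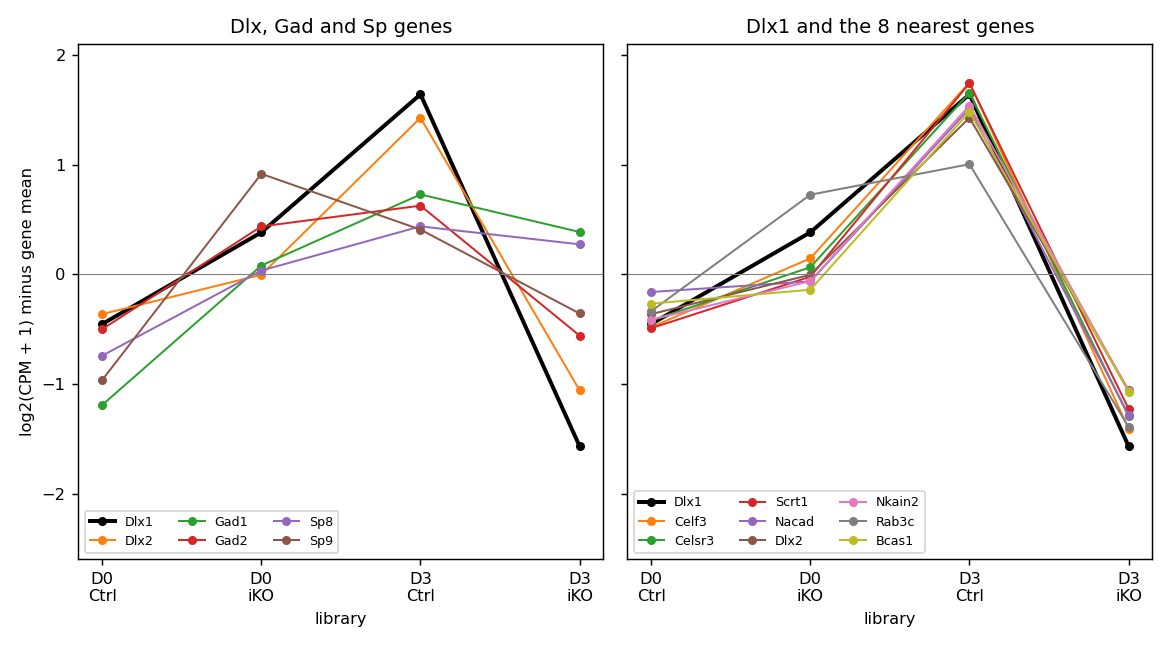
Log2(CPM + 1) minus the mean of the gene (vertical axis) in the 4 libraries (horizontal axis) for the 6 lineage genes above the minimum (left) and for Dlx1 with its 8 nearest genes (right); lines join libraries only to show each gene's order. Dlx1 (black) and Dlx2 have their highest value in Ctrl at day 3 and their lowest in iKO at day 3, whereas the lowest value of Gad1 and Sp8 is in Ctrl at day 0.

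Gad1 had 8 transcript models, and its estimated counts were spread over them. The full-length model NM_008077.5 held 31.9% (Ctrl) and 56.9% (iKO) of Gad1 counts at day 0, and 28.2% and 45.2% of them at day 3. The shorter model NM_001312900.1 held 9.01% and 10.4% at day 0 and 20.7% and 18.4% at day 3. A further model, XM_006498767.2, had the largest share in both Ctrl libraries, 46.6% (day 0) and 38.2% (day 3). The iKO libraries had 29.4% (day 0) and 29.6% (day 3) of their Gad1 counts on XM_006498767.2. Both iKO libraries thus had a larger share on the full-length model, and a smaller one on XM_006498767.2, than the Ctrl library of the same day. Both day 3 libraries had a larger share on the shorter model NM_001312900.1 than the day 0 libraries. How counts are divided between overlapping models is an estimate with an error that the files do not give.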

How the data were processed

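RNA was sequenced in 4 libraries, 1 per group. The submitters' processing notes list HISAT, Bowtie2, StringTie and the build mm10, with no roles. For the counting tool, its strand setting and the annotation release nothing is stated in the sources used here. The files hold 55122 RefSeq transcripts each, with an expected count that the authors deposited as an estimate with decimals. The other deposited value has no named unit and was read as FPKM: between any library and the first, its quotient with the count differed by a factor that was nearly the same across transcripts with high counts. The authors' deposited tables give a log2 ratio and an FDR, a p-value adjusted by a method that is not given, per the file headers.

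Expected counts were summed per Entrez gene and rounded. Symbols came from RefSeq (GRCm38.p6, the build of mm10) for 17498 of 17621 genes and from the authors' tables for 19. Library sizes were scaled with edgeR 4.0.16 (TMM) in R 4.3.3. Log2 ratios used a pseudocount of 1 CPM, genes with a mean under 1 CPM were left out of counts over all genes (4645 genes), and printed folds are CPM ratios with exact conditional (Clopper-Pearson) 95% intervals from scipy 1.17.1. Intervals and floors cover counting error alone. The intervals may be too narrow even for that, since PCR copies of 1 molecule may be counted more than 1 time. The ratio code was tested on simulated data. With 1 library per group no test across conditions was run. Genes outside the 9 are named if they were among the 2 largest ratios of a list, adjacent to a member, among the 8 nearest to Dlx1, or Seh1l, Gsx2 or Lhx6; other genes named (markers near 0, stem cell markers, Gsx1 and Tubb3 among them) were chosen after their values were seen. Some genes that this rule covers are not reported here. Members and lists were chosen with earlier results of these data known. The alternatives tried were DESeq2 1.42.0 size factors, library totals, FPKM, a pseudocount of 0.1 or 5 CPM, a minimum of 0 or 5 CPM, scaling without ribosomal protein and histone genes, and, chosen after seeing the data, NM transcript models alone.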

Additional observations from a re-analysis of the deposited data

Results flagged for a closer look

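For 7 of the 9 genes the iKO library read above Ctrl at day 0 and below it at day 3, each beyond counting error, as did 3.26% of all 17621 genes. With NM transcript models alone Gad1 lay at 0.00 at day 3. The log2 ratio of iKO to Ctrl at day 3 minus that at day 0 was -4.05 for Dlx1, -2.84 for Dlx2, -2.65 for Sp9, -2.12 for Gad2, -1.63 for Dlx5, -1.61 for Gad1 and -1.34 for Slc32a1. The difference between the days was not tested, since each value rests on 1 library per group. Dlx5 and Slc32a1 had 0 counts in iKO at day 3, so their differences depend on the pseudocount. Sp8 and Dlx6 changed sign in the same order, but not beyond counting error on both days.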

How the results depend on the processing

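No paired analysis was possible because each group held 1 library, and no library could be left out for the same reason. Of 90 counts of genes recomputed under the alternatives, 83 stayed within 1.5 times and 7 moved. The number higher in iKO at day 0 was 2, and it was 1 with a pseudocount of 5 CPM and 1 with a minimum mean of 5 CPM. It was 3 with a pseudocount of 0.1 CPM and 3 with library totals, where Gad2 also passed (1.22 and 1.04). With NM transcript models only it was 4, among them Sp8 at 1.17, from 0 (Ctrl) and 20.7 (iKO) estimated counts. The number higher at day 3 in Ctrl was 6, and both deposited FPKM and a pseudocount of 5 CPM gave 3. The FPKM setting added a pseudocount of 1 to values that were often near or below 1. Gad2 (0.320 FPKM at day 0 and 0.960 at day 3), Sp8 (1.09 and 2.86) and Sp9 (0.450 and 1.82) fell short there. Their plain FPKM ratios in Ctrl exceeded 2-fold. The number lower at day 3 in iKO was 3, and 1 with a pseudocount of 5 CPM. With a pseudocount of 0.1 CPM and with library totals, among other settings, it was 4. The number whose day difference lay at least 1 below was 5, and 3 with a minimum mean of 5 CPM, which left fewer genes to count. Among 380 values of single genes 0 called ratios changed sign and 78 lay outside the counting interval. Some of these equal the main value, such as Sp9 at day 0 with no minimum level (1.88). There the main value, with its pseudocount, itself lay outside the interval of the plain CPM ratio. The 78 is thus not a count of effects of processing. Dlx1 at day 3 ranged from -3.55 to -2.35 and Dlx2 from -2.62 to -2.06, while Gad1 ranged from -0.45 to 0.00 and Sp8 from -0.24 to 0.13. Scaling to library totals moved the median log2 ratio of all genes between the days in iKO from -0.01 to -0.13, and that of the day difference from 0.06 to -0.13. Depth limits Dlx5, Dlx6 and Slc32a1, which had 0 counts in iKO at day 3.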

Other observations

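GABA receptor subunits and chloride transporters did not follow the Dlx genes. Of 19 listed genes 18 were in the files and 13 were compared, and at day 3 in iKO 3 were higher and 1 lower. The subunit genes Gabra2 (6.07 CPM (Ctrl) and 14.2 CPM (iKO)), Gabra4 (13.3 CPM and 31.8 CPM) and Gabrb1 (37.2 CPM and 95.8 CPM) were higher, and Gabbr2, a subunit of the metabotropic receptor, was lower (34.0 CPM and 14.3 CPM). Gabra2 is named with the other 3 to complete the count, after its value was seen. The list's median over the 18 genes was 0.03. Among all genes compared, 6.27% were higher and 4.76% lower at day 3.

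Of 11 listed genes of GABA metabolism and transport, several of which astrocytes also express, 10 were in the files and 9 were compared. Abat, the enzyme that degrades GABA, was at 47.6 CPM (Ctrl) and 174 CPM (iKO) at day 0 (1.84), and at 829.9 CPM and 1361 CPM at day 3. The GABA transporter gene Slc6a11 was at 2950 CPM (Ctrl) and 1411 CPM (iKO) at day 3 (-1.06), and the taurine transporter gene Slc6a6 at 47.7 CPM and 17.2 CPM (-1.42). These were the 2 of 9 genes lower in iKO at day 3, and 0 were higher, against 4.76% and 6.27% of all genes.

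Gpr158, 790 kb from Gad2, and Ppp1r16b, 51.0 kb from Slc32a1, had day 3 log2 ratios of iKO to Ctrl of -2.15 and -1.83. The count ratio of Dlx1 to Gad1 within a library was 0.569 and 0.427 in Ctrl and iKO at day 0, 0.671 in Ctrl at day 3 and 0.0708 (0.0528 to 0.0931) in iKO at day 3.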
